A study of Arabidopsis thaliana with 14 samples.

Results

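Rosette leaves of Arabidopsis thaliana that had carried a gibberellin-loaded silk microneedle for 3 h were compared with leaves that had not been injected. The comparison was chosen by the sample labels and takes in 6 of the 14 RNA sequencing libraries of the series, with 3 libraries in each group. Both groups came from 30-day-old plants of ft-10, which has a defect in the gene of the leaf-made flowering signal, FT, so the control leaves carry the same lesion as the injected ones. Plants stood in soil at 22 °C under 16 h of light and 8 h of darkness at about 100 µmol of photons per square metre per second. The 3 h leaves received needles loaded with 15 mM gibberellic acid, GA3, a plant growth hormone, and the needles were taken out before the leaves were frozen. The labels count these libraries as biological replicates and do not say whether each holds 1 plant or several. Libraries from leaves 24 h after the same GA3 needle are used to show where the 3 h values went next. An empty needle was sampled at 24 h and not at 3 h, so the puncture and the silk, the GA3 and the 3 h of clock time cannot be told apart in any difference between 3 h and untreated leaves.

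Gibberellins act through the receptor GID1, which binds the hormone and then draws DELLA proteins, repressors of growth, to destruction. A leaf that senses much gibberellin is known to lower the genes of gibberellin synthesis and receptors and to raise those of gibberellin inactivation. Wounding a leaf is known to release danger peptides and to switch on the making of jasmonate, while loss of water is known to raise abscisic acid, which works through PYR and PYL receptors that block the clade A phosphatases. Many leaf genes also follow the circadian clock, so that 3 h of clock time alone moves them.

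Each library held between 21113105 and 26537437 reads, of which 88.8% to 95.4% fell in genes, and levels are given as CPM, read counts relative to library size after scaling by the trimmed mean of M values (TMM). The tissue label was borne out by the marker genes: 10 of 10 mesophyll markers lay above 1000 CPM in the mean of either group. In the 6 libraries 7 of 7 root hair markers had no read. Of the shoot meristem and flower markers, WUS, CLV3, LFY and AP1 were at 0 in both groups, while others had a few reads. The 6 meristem markers summed to 0.0888 to 0.31 CPM in untreated libraries and 0.164 to 0.926 CPM at 3 h. The 8 floral organ markers summed to 0.531 to 1.27 CPM in untreated libraries and 0.575 to 0.75 CPM at 3 h. In each group a library stood apart from the others. Untreated replicate 1 had a Spearman correlation over genes of 0.949 with each of its fellows, which stood at 0.988 to each other, and GA3 replicate 3 had 0.938 and 0.956 against 0.983 between the remaining pair. GA3 replicate 3 also had the lowest share of reads in genes, 88.8%, and the highest share of multiply mapping reads, 4.65%. Values of called genes that rest on either library are mostly given with and without it, and those of genes not called only in part.

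After 3 h, 1716 genes were higher and 1132 were lower than in untreated leaves, at an adjusted p under 0.05 in edgeR's quasi-likelihood test over 20077 genes. That is 14.2% of the genes tested, 8.55% higher and 5.64% lower, and these shares are the background for every count of list members below. In parentheses below, a log2 fold change stands with its SE, followed by the adjusted p of that test. Where groups are said not to overlap, this describes the 3 libraries of each group for the gene named and is no further test. For the 12 largest rises and the 12 largest falls it was a condition of their choice. The median log2 fold change was -0.00014 over all genes tested, 1.46 over those that rose and -1.09 over those that fell. Rises were also the larger changes: 612 genes rose and 171 fell by more than 4-fold, and 202 rose and 20 fell by more than 16-fold. Scaling by total counts alone gave 2031 higher and 786 lower, so that 72.1% in place of 60.3% of the calls were rises, with the median of all genes shifted to 0.12. Leaving out untreated replicate 2 or 3 or GA3 replicate 2 brought the calls to 1624, 1481 and 1475, against 2848 with every library, while leaving out both libraries that stood apart, a step added after the data had been seen, gave 1620 higher and 1302 lower. Since leaves are mixtures of cells, a fall can mean fewer cells of a type or less RNA per cell, and these cannot be told apart here.

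The plot places genes with a role in gibberellin, stress, defence, the clock and growth side by side on the scale of log2 fold change. It draws every tested member of the lists shown, and some lists, aquaporins among them, are left out. At least 6 in 14 tested members rose among gibberellin inactivation, cold- and dehydration-linked genes, clade A phosphatases, abscisic acid synthesis and breakdown, jasmonate catabolism, the danger-peptide group, the evening clock, starch breakdown, osmoprotectants and aquaporins. Abscisic acid receptors and brassinosteroid genes held falls and no rise.

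**Figure D1:**
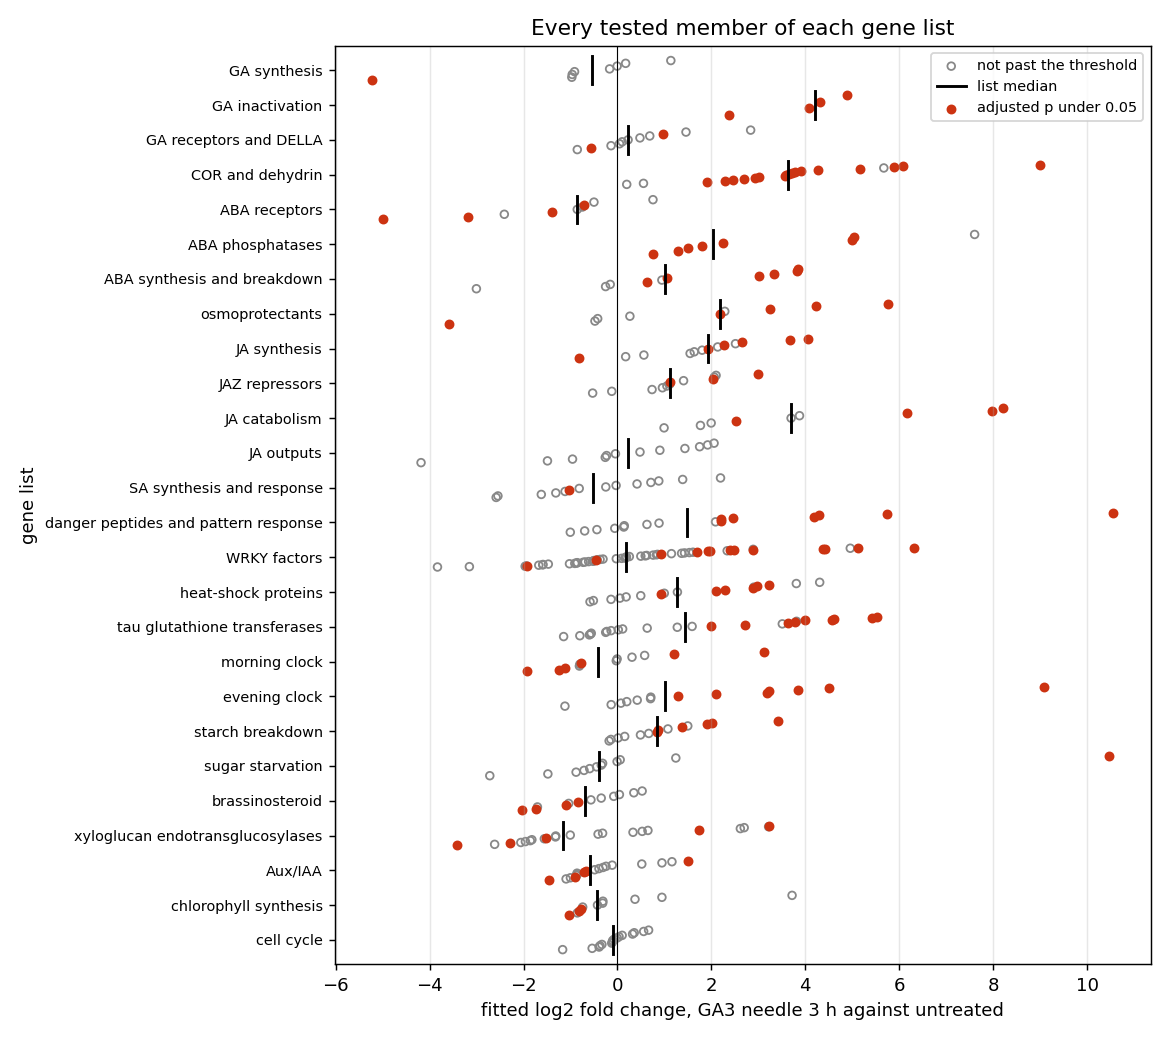
Fitted log2 fold change of the GA3 needle at 3 h against untreated leaves (horizontal axis) for every tested member of 26 gene lists (vertical axis). Filled points passed an adjusted p of 0.05 in edgeR, open points did not, and the black bar is the list median, which was 3.62 for the cold- and dehydration-linked genes (2.56 without GA3 replicate 3) and -0.087 for cell cycle genes.

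FT, the gene of the lesion, was read in every library. Its level was 4.65, 4.35 and 3.39 CPM in untreated replicates 1 to 3 and 43.01, 37.1 and 50.8 CPM in GA3 replicates 1 to 3. The groups did not overlap, and every 3 h library lay far above every untreated one. FT rose by 3.398 ± 0.43 on the log2 scale (SE, adjusted p = 0.000793). Counts per gene do not show which stretch of FT the reads cover, so they do not tell whether a working transcript was made, and both groups carry the lesion.

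Genes that inactivate gibberellin rose, and the last step of gibberellin synthesis fell. GA2OX6 encodes a 2-oxidase that destroys active gibberellin, and it had 3.67, 3.55 and 2.81 CPM in untreated leaves and 49.5, 47.4 and 73.5 CPM at 3 h. The 3 h libraries were all more than 10-fold above the untreated ones, and the rise of 4.08 ± 0.42 (log2, adjusted p = 0.000217) held without any single library. GA3OX1, whose product makes bioactive gibberellin, had 1.99, 2.35 and 1.17 CPM in untreated leaves and 0, 0 and 0.123 CPM at 3 h, which is 120 reads against 3. The ratio of untreated to 3 h was 42.2, with a 95% counting interval of 14.1 to 207.5, and the adjusted p was 0.00913. Without GA3 replicate 3, the single 3 h library with reads of it, GA3OX1 had no read left at 3 h and kept its call, with an adjusted p of 0.0101.

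All 4 tested genes of gibberellin inactivation were called higher, against a background of 8.55%, and their median log2 fold change was 4.197. GA2OX2, another 2-oxidase gene, went from 2.96, 2.35 and 1.27 CPM to 10.9, 12.2 and 11.5 CPM, a rise of 2.39 ± 0.58 (adjusted p = 0.0185). GAMT2, which methylates gibberellins, and ATGA2OX1, a 2-oxidase gene, stayed at or under 3.35 CPM in every library and had adjusted p-values of 0.0162 and 0.0289. Without untreated replicate 2 or 3 or GA3 replicate 2 the list held 2, 1 and 1 rises. GA2OX2 lost its call without untreated replicate 2 or 3 or GA3 replicate 2 (adjusted p up to 0.0737), GAMT2 without untreated replicate 3 or GA3 replicate 2 (up to 0.0614), and ATGA2OX1 without untreated replicate 2 or 3 or GA3 replicate 1 or 2 (up to 0.0954). The size of these low genes also moved: GAMT2 went from 4.898 to 4.31 without untreated replicate 1 and to 8.42 without replicate 2, and ATGA2OX1 from 4.31 to 3.29 without GA3 replicate 1 and to 4.91 without untreated replicate 1.

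Of the 7 further inactivation genes in the list, none had enough reads to be tested. GA2OX7 had no read in untreated leaves and 22 at 3 h, at least 6.95-fold more against a floor of 3 reads over the group, and ATGA2OX3 had 18 reads in untreated leaves and none at 3 h, at least 6.33-fold fewer. GA2OX8 had 15 and 10 reads, CYP714A1 had 0 and 9, GA2OX4 had 1 and 0, and GAMT1 and CYP714A2 had none.

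Earlier steps of gibberellin synthesis were not called. Of 8 tested synthesis genes, GA3OX1 alone was called, and the list median was -0.54. KAO2 and CYP88A3, the ent-kaurenoic acid oxidase genes, stood at 18.98, 20.2 and 23.9 CPM and 8.28, 9.63 and 9.02 CPM in untreated leaves and at 24.5, 18.7 and 12.9 CPM and 9.48, 8.59 and 8.71 CPM at 3 h. The ent-kaurene oxidase gene, whose symbol is also GA3 (AT5G25900), went from 22.5, 21.7 and 33.99 CPM to 24.4, 27.6 and 36.1 CPM (log2 0.17 ± 0.21, adjusted p = 0.636). The kaurene synthase gene GA2 had a log2 fold change of 1.14 ± 0.48 with an adjusted p of 0.133, the copalyl diphosphate synthase gene GA1 one of -0.97 ± 0.89 with 0.506, and GA3OX2 one of -0.91 ± 1.11 with 0.63. Without GA3 replicate 3 that of GA1 was -0.39 and that of GA3OX2 -0.51. The 20-oxidase gene GA20OX1, which feeds GA3OX1, had 0.797, 1.51 and 0.689 CPM and then 1.01, 0.439 and 0.0822 CPM (adjusted p = 0.465), while GA20OX2 had 11 reads in untreated leaves and none at 3 h, at least 3.87-fold fewer. GA20OX3, GA20OX4, GA3OX3 and GA3OX4 had no read in the 6 libraries.

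Receptors and DELLA genes were mostly not called, with 1 rise and 1 fall among 11 tested and a median of 0.23. GID1C, a gibberellin receptor gene, went from 15.7, 14.8 and 15.1 CPM to 26.3, 30.1 and 33.2 CPM, with no overlap, and its rise of 0.97 ± 0.203 (adjusted p = 0.00944) held without any single library, and the list had a 2nd rise without GA3 replicate 1. The other receptor genes did not pass: GID1B had -0.86 ± 0.41 (adjusted p = 0.189) and GID1A 0.043 ± 0.21 (adjusted p = 0.916). SPY, an O-fucosyltransferase gene that acts on DELLA proteins, went from 52.8, 48.7 and 61.3 CPM to 35.5, 31.6 and 42.9 CPM, a fall called at 0.0447 that was lost without any of the untreated replicates or GA3 replicates 1 and 2 (adjusted p up to 0.155).

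None of the 5 DELLA genes was called, and they spread in both directions. RGL2 had 2.12, 2.397 and 1.06 CPM in untreated leaves and 20.6, 16.8 and 2.79 CPM at 3 h, so that GA3 replicates 1 and 2 were high and replicate 3 was near the untreated level (log2 2.84 ± 1.05, adjusted p = 0.0913). RGA1 had 0.23 ± 0.26 (adjusted p = 0.603), GAI -0.14 ± 0.23 (0.734), RGL1 0.69 ± 0.35 (0.213) and RGL3 1.46 ± 0.67 (0.165). The F-box gene SLY1, whose product marks DELLA proteins for destruction, had 0.099 ± 0.16 (0.733), its relative SLY2 had 2 and 10 reads and was not tested, and SEC, the O-GlcNAc transferase gene, had 0.48 ± 0.17 (0.0865).

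A list of 12 DELLA-induced and GASA peptide genes held 3 falls and no rise among 11 tested, with a median of -1.34. XERICO, a DELLA-induced RING protein gene, went from 14.4, 13.6 and 16.02 CPM to 8.65, 7.71 and 8.87 CPM (-0.804 ± 0.21, adjusted p = 0.025), and GASA6, a gibberellin-responsive peptide gene, from 25.4, 80.9 and 71.9 CPM to 10.4, 10.9 and 2.01 CPM (-2.94 ± 0.797, 0.0299). AT2G31730 fell as well (-1.48 ± 0.45, 0.048). None of the 3 calls outlived the loss of every library: without untreated replicates 2 or 3 or GA3 replicate 2 all were lost, XERICO and AT2G31730 also without GA3 replicate 1, GASA6 without GA3 replicates 1 and 3 and AT2G31730 without untreated replicate 1, with adjusted p-values up to 0.0856, 0.0832 and 0.139. SCL3, a DELLA target, did not pass (-1.56 ± 0.602, 0.104). Its log2 fold change was -0.499 without untreated replicate 1 and -0.159 without both libraries that stood apart.

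Cold- and dehydration-linked genes rose in nearly every case. Of 20 COR and dehydrin genes, all tested, 17 were called higher and none lower, with a median log2 fold change of 3.62 that was 2.56 without GA3 replicate 3. Against the untreated mean, the list's median log2 difference was 2.33, 2.38 and 4.26 in GA3 replicates 1 to 3. The promoters of the list members with the clearest rises are shown here because short elements of such promoters are known binding sites: ACGTG is the core of the element read by the abscisic acid factors of the ABF family, and CCGAC is the core read by CBF and DREB factors. The sequences are the 250 bases before the gene start, 5′ to 3′ on the coding strand, from RefSeq's TAIR10.1 assembly, with the named element in capitals in either orientation. COR413IM1 lies on chr1:10289667-10289916, minus strand, with ACGTG in capitals, and LTI78, also known as RD29A, on chr5:21240467-21240716, plus strand, with CCGAC in capitals.
COR413IM1: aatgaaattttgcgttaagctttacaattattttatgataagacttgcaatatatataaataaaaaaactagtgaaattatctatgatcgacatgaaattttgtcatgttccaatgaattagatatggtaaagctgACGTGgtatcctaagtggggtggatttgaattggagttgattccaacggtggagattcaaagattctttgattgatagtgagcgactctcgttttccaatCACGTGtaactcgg
LTI78: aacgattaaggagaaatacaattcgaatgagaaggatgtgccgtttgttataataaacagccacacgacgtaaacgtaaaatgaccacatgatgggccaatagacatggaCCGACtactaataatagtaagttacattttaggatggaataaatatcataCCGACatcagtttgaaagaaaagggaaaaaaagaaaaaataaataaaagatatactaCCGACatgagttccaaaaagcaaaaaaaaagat

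COR413IM1 encodes a protein of the inner chloroplast envelope and had 15.002, 12.8 and 15.1 CPM in untreated leaves and 132, 73.5 and 143 CPM at 3 h. Its rise of 3.02 ± 0.22 had the smallest adjusted p of the list, 3.61e-05. LTI78 had 55.5, 17.97 and 20.9 CPM in untreated leaves and 2004, 1859 and 2509 CPM at 3 h, and all 3 h libraries lay more than 30-fold above the highest untreated one. The rise of LTI78 was 6.08 ± 0.49 (adjusted p = 4.53e-05), or 6.75 without untreated replicate 1, its highest control. HVA22D went from 25.4, 20.4 and 14.8 CPM to 182, 155 and 128 CPM (2.94 ± 0.26, 9.4e-05).

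KIN1, a small hydrophilic cold-induced protein gene, went from 0.797, 2.75 and 1.91 CPM to 45.7, 38.5 and 111 CPM. GA3 replicate 3 was its highest library, and the rise of 5.16 ± 0.57 (adjusted p = 0.000333) was 4.52 without it. ERD7 went from 45.1, 11.6 and 17.8 CPM to 281, 259 and 484 CPM (3.78 ± 0.48, 0.000775), with 4.51 when untreated replicate 1 was left out. KIN1 has a close neighbour and near copy, KIN2, and reads that map to both are not in the gene counts, which makes the level of either uncertain. COR15A and LTI30, chosen after their values were seen, protect the chloroplast and the cell in dehydration and went from 51.3, 45.5 and 47.4 CPM to 549, 359.8 and 914 CPM and from 6.02, 6.39 and 7.64 CPM to 93.5, 83.3 and 209.7 CPM.

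A smaller set within the list rested on GA3 replicate 3. LEA7, LEA4-5, RAB18 and LTI65 (RD29B), chosen after their values were seen, are seed- and drought-type protectant genes. LEA7 had 0.132, 0.293 and 150.1 CPM and RAB18 21.8, 26.1 and 476 CPM in GA3 replicates 1 to 3, against 0.177, 0.0888 and 0 CPM and 17.7, 12.9 and 13.05 CPM in untreated leaves. Without GA3 replicate 3, LEA7 went from 8.99 ± 2.51 to 1.15 (adjusted p = 0.65), RAB18 from 3.58 ± 0.97 to 0.71 (0.145), LEA4-5 from 5.88 ± 1.47 to 2.29 (0.0971) and LTI65, not called with every library either (0.054), from 5.67 ± 1.79 to 0.57 (0.8). LEA7, RAB18 and LEA4-5 also lost their calls without any of the untreated libraries (up to 0.113, 0.0989 and 0.0809), and LEA7 was 9.82 without untreated replicate 1. The count of risen COR and dehydrin genes was 14 of 20 without that library, and ran from 12 to 18 when each of the 6 was left out in turn.

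**Figure D2:**
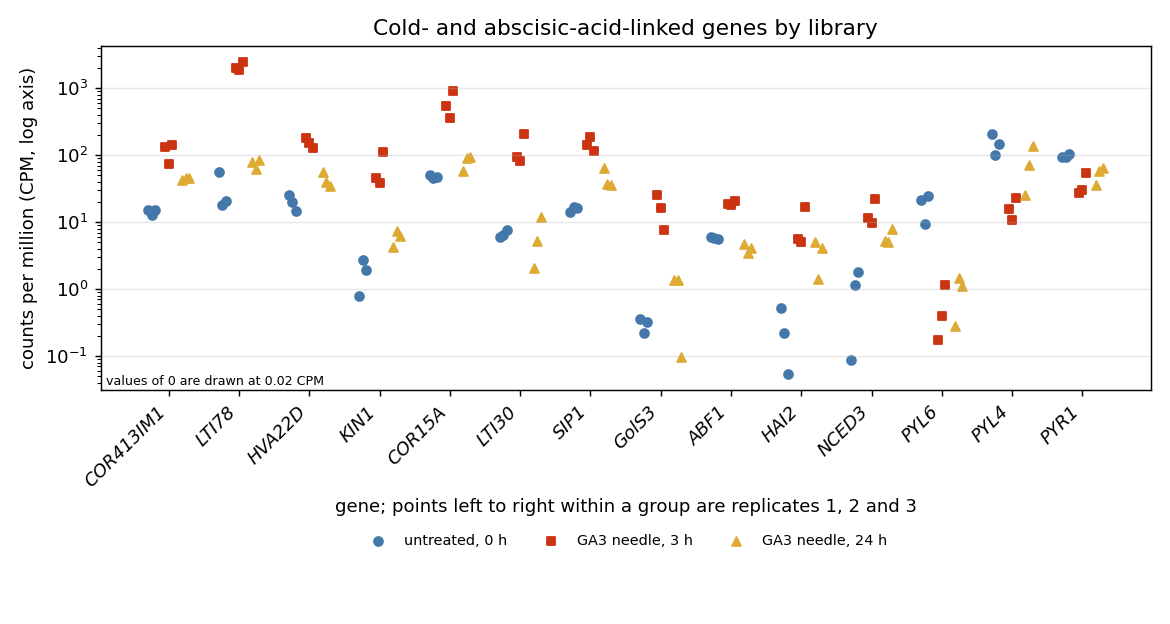
Level of 14 genes in each library (vertical axis, CPM on a log axis) in untreated leaves, 3 h after the GA3 needle and 24 h after it, 3 libraries each. The 3 h libraries of the cold-linked genes COR413IM1 to LTI30 lie above all untreated libraries, those of the receptor genes PYL6, PYL4 and PYR1 lie below, and by 24 h LTI78 was back to a mean of 74.9 CPM.

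Within windows of 250 bases before to 50 after the gene start, ACGTG stood in 16 of 20 promoters of the COR and dehydrin list (80%), against 27.7% of 19968 tested genes with a window and 33.3% of all risen genes. ACGTG also stood in 10 of 14 windows of the evening clock list (71.4%) and 5 of 8 of the clade A phosphatases (62.5%). In the other lists counted it ran from 29.4% for heat-shock proteins to 42.9% for starch breakdown. CCGAC stood in 10 of 20 of the COR and dehydrin list (50%), against 16.4% of all. These shares describe letters in the sequence, counted on both strands, and CACGTG, which contains ACGTG, was found in 7 of 20 against 8.87%.

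Among the factors that act upstream of cold genes few were called. Of 12 tested CBF, DREB and ZAT genes, DREB2A alone was called, and the list median was 0.34. DREB2A had 0.974, 0.0888 and 1.48 CPM and then 4.28, 4.001 and 24.6 CPM, a rise of 3.6997 ± 0.93 (adjusted p = 0.0219). It lost its call without untreated replicate 2 (0.0583) and without GA3 replicate 3, where its log2 fold change was 2.29 (0.0801), and it was 4.35 without untreated replicate 3. DREB1A, also called CBF3, had 3.75 ± 1.32 with an adjusted p of 0.086. Without untreated replicate 1 the list held 3 rises, and without both libraries that stood apart its median was -0.039.

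Abscisic acid receptor genes fell while the phosphatases they block rose. Of 9 tested receptor genes 4 were called lower, against a background of 5.64%, and none higher, with a median of -0.86. PYL6 had 21.5, 9.41 and 24.7 CPM in untreated leaves and 0.176, 0.3903 and 1.15 CPM at 3 h. It came first among the 12 largest falls under the limits given below. Its log2 fold change was -4.99 ± 0.89 (adjusted p = 0.00458), or -6.02 without GA3 replicate 3. PYL4 went from 206, 100.5 and 147 CPM to 15.9, 10.9 and 23.2 CPM (-3.18 ± 0.63, 0.00747) and PYR1 from 94.4, 94.1 and 105 CPM to 26.95, 30.6 and 54.3 CPM (-1.39 ± 0.29, 0.00995). In PYL4 and PYR1 no 3 h library reached the lowest untreated one. For PYL6 this was a condition of its place among the 12 largest falls. RCAR3 fell by less (-0.72 ± 0.17, 0.0178), a call lost without untreated replicate 3 or GA3 replicate 2 (up to 0.0651).

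Of 8 tested clade A phosphatase genes 7 were called higher, with a median of 2.03. HAI2 had 0.531, 0.222 and 0.053 CPM and then 5.69, 5.07 and 17.1 CPM, a rise of 5.05 ± 0.83 (adjusted p = 0.00289) that was 4.25 without GA3 replicate 3 and 5.93 without untreated replicate 1. ABI1 went from 73.7, 48.1 and 45.1 CPM to 118, 196 and 271 CPM (1.81 ± 0.36, 0.00778). ABI2 went from 11.3, 8.88 and 5.197 CPM to 20.9, 26.3 and 74.02 CPM (2.25 ± 0.46, 0.00867), with GA3 replicate 3 its highest library and 1.47 without it. Without untreated replicate 2 or 3 or GA3 replicate 3 the count of risen phosphatase genes was 3 of 8: PP2CA and HAB2 lost their calls in each case, and HAB2 also without GA3 replicate 2, with adjusted p-values up to 0.0917 and 0.136.

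Among 8 abscisic acid kinases and bZIP factors, ABF1 and SNRK2.2 were called higher. ABF1, a factor that binds ACGTG elements, had 5.93, 5.73 and 5.57 CPM and then 18.6, 18.2 and 20.5 CPM, tight in both groups, and rose by 1.73 ± 0.23 (adjusted p = 0.00104). SNRK2.2 rose by 0.82 ± 0.22 (0.0305), a call held without GA3 replicate 1 and lost without any other of the 6 libraries (up to 0.1). Genes for making and for breaking down abscisic acid both rose, 6 of 10 tested with none lower and a median of 1.005, or 2.08 without untreated replicate 1. NCED3, the rate-limiting enzyme of its synthesis, went from 0.0885, 1.15 and 1.803 CPM to 11.5, 9.71 and 22.02 CPM (3.84 ± 0.83, 0.0114, and 4.52 without untreated replicate 3).

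On the breakdown side, CYP707A4 encodes an abscisic acid 8′-hydroxylase and went from 0.177, 1.02 and 1.17 CPM to 10.6, 5.32 and 8.05 CPM (3.34 ± 0.65, adjusted p = 0.00696). CYP707A1, of the same family, went from 2.43, 3.68 and 2.76 CPM to 19.6, 20.4 and 31.5 CPM (3.01 ± 0.69, 0.015), a call lost without untreated replicate 3 (0.0593). Without untreated replicate 2 or 3 or GA3 replicate 2 the abscisic acid synthesis and breakdown list held 3, 2 and 3 rises.

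Sugars and amino acids that protect against drying were represented by 9 tested genes, of which 4 rose and 1 fell. Their median was 2.19, or 1.11 without GA3 replicate 3, and the median log2 difference from the untreated mean was 0.33, 1.75 and 2.56 in GA3 replicates 1 to 3. SIP1, here the raffinose synthase gene AT5G40390, went from 14.1, 16.8 and 16.1 CPM to 143, 188 and 114 CPM (3.25 ± 0.33, adjusted p = 0.000217). The galactinol synthase genes GolS3 and GolS2 supply its substrate and went from 0.354, 0.222 and 0.318 CPM to 25.1, 16.4 and 7.64 CPM (5.75 ± 0.77, 0.000988) and from 2.52, 1.42 and 1.803 CPM to 29.6, 55.5 and 22.6 CPM (4.22 ± 0.83, 0.00748). None of these 3 calls depended on a single library. In proline metabolism P5CS1, of synthesis, rose by 2.19 ± 0.61 (0.0331) and ERD5, the proline dehydrogenase of breakdown, fell from 289.5, 236 and 524 CPM to 13.8, 16.6 and 56.97 CPM (-3.58 ± 1.08, 0.0448). P5CS1 lost its call without each library but GA3 replicate 1 (up to 0.137, and 1.11 without GA3 replicate 3), and ERD5 without each but GA3 replicate 3 (up to 0.143), where it was -4.53.

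Danger peptide genes with few or no reads in untreated leaves rose. PROPEP3 encodes the precursor of a peptide that is released from damaged cells, and PEPR2 a receptor for peptides of this family. The 250 bases before the start of PROPEP3, on chr5:25939312-25939561 of the plus strand, and of FRK1, a receptor kinase gene of pattern-triggered immunity on chr2:8329945-8330194 of the minus strand, are shown for the element TTGAC, the core of the W-box bound by WRKY factors, which is in capitals in either orientation.
PROPEP3: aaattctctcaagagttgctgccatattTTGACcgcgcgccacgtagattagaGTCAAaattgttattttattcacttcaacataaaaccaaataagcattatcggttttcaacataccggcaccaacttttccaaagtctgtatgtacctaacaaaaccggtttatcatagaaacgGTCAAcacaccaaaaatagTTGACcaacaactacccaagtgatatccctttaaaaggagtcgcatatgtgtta
FRK1: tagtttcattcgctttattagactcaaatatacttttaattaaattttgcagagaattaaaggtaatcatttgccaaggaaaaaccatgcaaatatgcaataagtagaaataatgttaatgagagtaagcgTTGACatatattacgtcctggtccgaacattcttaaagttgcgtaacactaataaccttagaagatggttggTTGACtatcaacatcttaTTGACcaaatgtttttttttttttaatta

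PROPEP3 had no read in the 3 untreated libraries and 6.79, 14.8 and 4.93 CPM at 3 h, 578 reads in all. Against a floor of 3 reads over the untreated group it was at least 182.6-fold higher (adjusted p = 0.00184), and the fitted log2 value of 10.56, which was 9.96 without GA3 replicate 2, is no bound. PEPR2 went from 2.12, 2.09 and 2.65 CPM to 9.31, 19.6 and 8.995 CPM (2.46 ± 0.48, 0.00702). FRK1 went from 7.97, 1.33 and 1.48 CPM to 49.5, 94.03 and 54.8 CPM (4.19 ± 0.82, 0.0073, and 5.53 without untreated replicate 1). All 3 h libraries of the 3 genes lay above all untreated ones.

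In this list of 16 danger-peptide and pattern-response genes, all tested, 7 were called higher and none lower, with a median of 1.49, the same when PROPEP3 was set at its bound. PROPEP2 had 1 read in untreated leaves and 75 at 3 h, a ratio of 71.1 with a 95% counting interval of 12.4 to 2845, and its call was lost without untreated replicate 2 (0.0533). Its fitted log2 value was 5.73, 4.97 without GA3 replicate 2 and 7.64 without untreated replicate 3. PROPEP4 rose by 2.205 ± 0.53 (0.0181) and was not called without untreated replicate 2 or GA3 replicate 2 (up to 0.0725). The list held 4 rises without either of those libraries. The flagellin receptor FLS2, the oxidase RBOHD and the pattern co-receptor BAK1, chosen after their values were seen, had log2 fold changes of -0.699 ± 0.47, -1.01 ± 0.63 and 0.14 ± 0.22, with adjusted p-values of 0.348, 0.315 and 0.708. TTGAC stood in 14 of the 16 promoter windows (87.5%), against 51.1% of all tested genes and 54.6% of risen ones.

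Genes of jasmonate synthesis rose at several steps. Of 13 tested genes 5 were called higher and 1 lower, with a median of 1.94. JAR1, which joins jasmonate to isoleucine to make the active hormone, had 47.1, 32.04 and 30.8 CPM in untreated leaves and 236, 223 and 231 CPM at 3 h. The 3 h libraries lay close together and well above the untreated ones, and the rise was 2.65 ± 0.24 (adjusted p = 9.85e-05). AOC3, an allene oxide cyclase gene, went from 9.205, 6.702 and 15.8 CPM to 112, 181 and 111 CPM (3.67 ± 0.44, 0.000551), and LOX3, a 13-lipoxygenase gene, from 32.3, 16.6 and 47.8 CPM to 333, 650.1 and 616 CPM (4.05 ± 0.83, 0.00895). ACX1, of the peroxisomal steps, rose by 1.94 ± 0.41 (0.00995), and LOX6, another 13-lipoxygenase gene, was the single fall, from 82.6, 56.1 and 65.4 CPM to 35.3, 37.1 and 43.1 CPM (-0.82 ± 0.18, 0.013). None of these 5 calls depended on a single library.

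Genes that remove jasmonate rose too, and most had few reads in untreated leaves. CYP94B1 and CYP94B3 encode oxidases of the active hormone, and ST2A a sulfotransferase of hydroxyjasmonate. CYP94B1 went from 0.0443, 0.133 and 0.318 CPM to 16.2, 58.3 and 72.004 CPM (8.22 ± 1.56, adjusted p = 0.00615), ST2A from 1.15, 1.73 and 10.9 CPM to 238, 237 and 499.6 CPM (6.16 ± 1.295, 0.00995), and CYP94B3 from 0.266, 0 and 1.33 CPM to 78.8, 101.1 and 208 CPM (7.99 ± 2.08, 0.0253). The untreated libraries were all at or under 10.9 CPM and the 3 h ones all above 16. Untreated replicate 3 was the highest control in each, and without it the log2 fold changes were 9.01, 7.81 and 9.86. CYP94B3 lost its call without any untreated library or GA3 replicate 2 (up to 0.0879, and 7.37 without untreated replicate 2). In all, 4 of 9 tested catabolism genes rose, with a median of 3.697 that was 2.58 without both libraries that stood apart, and 2 did without untreated replicate 2 or GA3 replicate 2.

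JAZ repressors, which the hormone both destroys and induces, held 3 rises among 12 and a median of 1.11, with 1 rise without untreated replicate 2 or GA3 replicate 2. JAZ12 had 70.1, 63.7 and 81.4 CPM and then 112, 173 and 182 CPM (1.12 ± 0.22, adjusted p = 0.00791), while JAZ1 (2.04 ± 0.47, 0.0144) and JAZ10 (2.99 ± 0.88, 0.0408) lost their calls without untreated replicate 2 or GA3 replicate 2, and JAZ10 also without untreated replicate 1 or GA3 replicate 3 (up to 0.06 and 0.124, with 3.81 for JAZ10 without untreated replicate 3). The outputs of the pathway were not called: 0 of 12 jasmonate output genes passed in edgeR, with 3 at an unadjusted p under 0.05 and 1 called lower by DESeq2, MYC2 at 1.92 ± 0.83 (0.144) and ORA59, of the ethylene branch, at -4.18 ± 1.49 (0.0814). In ORA59 untreated replicate 1 had 3.98 CPM where replicates 2 and 3 had 61.2 and 105 CPM, so the untreated spread was wide. Salicylic acid genes held 1 fall and no rise among 14, and 2 rises without untreated replicate 1, and their median turned from -0.53 to 0.80 without untreated replicate 1.

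**Figure D3:**
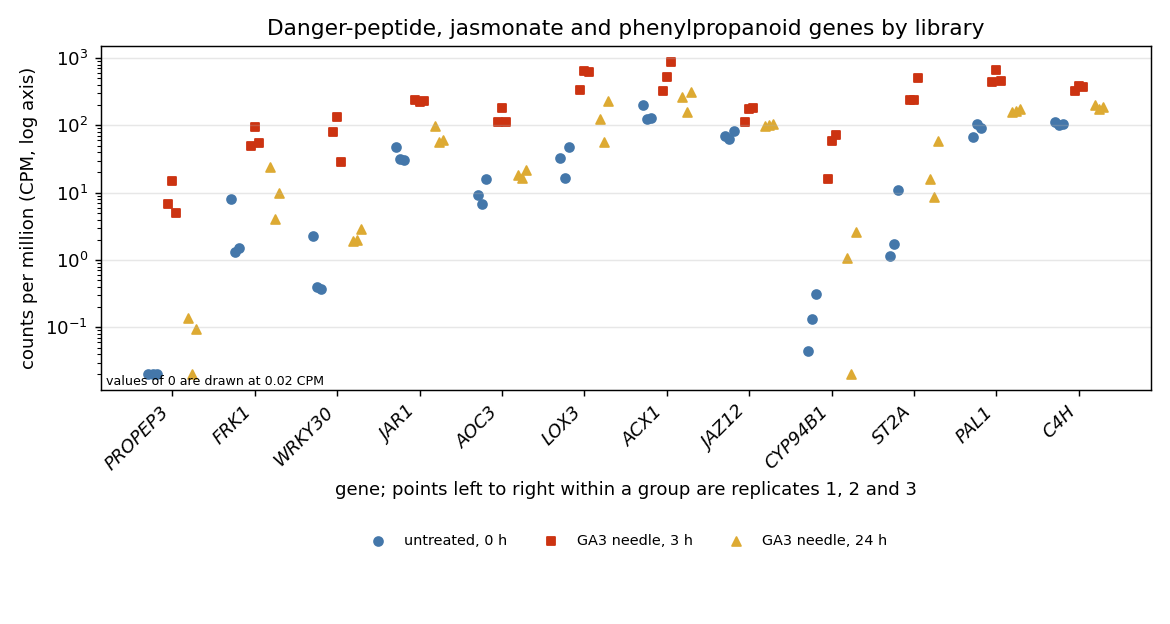
Level of 12 genes in each library (vertical axis, CPM on a log axis) in untreated leaves, 3 h after the GA3 needle and 24 h after it, 3 libraries each, with values of 0 drawn at 0.02 CPM. Every gene lies above its untreated libraries at 3 h, and PROPEP3 fell from 8.85 CPM at 3 h to a mean of 0.0785 CPM at 24 h.

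WRKY factors were split. Of 55 tested, 11 rose and 2 fell, with a median of 0.19, and 1 fell without untreated replicate 3 or GA3 replicate 1 or 2. WRKY30 had 2.26, 0.399 and 0.371 CPM and then 80.9, 135 and 28.5 CPM, a rise of 6.31 ± 0.804 (adjusted p = 0.000783, and 7.68 without untreated replicate 1). WRKY28 went from 4.34, 7.94 and 10.8 CPM to 28.8, 47.2 and 44.9 CPM (2.39 ± 0.42, 0.00392), WRKY8 from 9.07, 4.66 and 6.95 CPM to 17.2, 51.3 and 46.7 CPM (2.48 ± 0.41, 0.0031), and WRKY55 rose by 5.13 ± 0.89 (0.00384, and 6.52 without untreated replicate 2). WRKY17 had the largest p of the list, at -0.026 ± 0.19 (0.945).

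Detoxifying and stress-linked families followed. Of 24 tested tau glutathione transferase genes, 9 rose and none fell (median 1.43, or 2.11 without untreated replicate 1), with 5 rises when untreated replicate 3 was left out. GSTU5 went from 40.5, 66.8 and 63.8 CPM to 479, 862 and 768 CPM (3.62 ± 0.56, adjusted p = 0.00203) and GSTU7 from 9.205, 12.3 and 14.001 CPM to 44.6, 40.9 and 55.5 CPM (1.99 ± 0.27, 0.00104). Among 59 tested genes with NAC symbols 9 rose and 1 fell, and without untreated replicate 2 or GA3 replicate 2 the rises were 4 and 5. NAC019, a factor linked to abscisic acid and jasmonate, went from 6.68, 3.59 and 5.83 CPM to 81.3, 129.9 and 158 CPM (4.52 ± 0.72, 0.00243), and NAC032 from 5.399, 6.04 and 3.77 CPM to 29.8, 24.4 and 45.2 CPM (2.71 ± 0.37, 0.00113).

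Heat-shock protein genes held 6 rises among 17 tested, with a median of 1.28, and 3 rises and a median of 1.91 without untreated replicate 3. HSP101, a chaperone that dissolves protein aggregates, went from 6.15, 3.06 and 3.02 CPM to 45.1, 26.1 and 20.004 CPM (2.89 ± 0.45, adjusted p = 0.00213). HSP81-2 and HSP81-3, near-identical genes of cytosolic HSP90 whose multiply mapping reads are not in these counts, went from 251, 131 and 119 CPM to 774, 722 and 652 CPM (2.103 ± 0.297, 0.00131) and from 221, 92.8 and 86.6 CPM to 665, 661 and 632 CPM (2.29 ± 0.33, 0.00136). Untreated replicate 1 was the highest control in each, and no 3 h library overlapped it.

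The entry to phenylpropanoids rose. PAL1, the first enzyme of the pathway, had 67.97, 105 and 91.5 CPM and then 433, 661 and 462 CPM (2.55 ± 0.25, adjusted p = 0.000174), and C4H, the second, 111, 102 and 105 CPM and then 318, 381 and 374 CPM (1.76 ± 0.18, 0.000217). No 3 h library came near the untreated ones in either gene. PAP1, a factor that switches on anthocyanin genes, had 3 reads in untreated leaves and 318 at 3 h, a ratio of 100.5 with a 95% counting interval of 34.1 to 489.8 (adjusted p = 0.00768). Its fitted log2 value was 6.498, and 7.29 without untreated replicate 1. The list of flavonoid and anthocyanin genes, which takes in these entry enzymes, held 4 rises among 15 in all, PAL1, C4H and PAP1 among them, with a median of 0.795. GA3 replicate 3 went against its fellows there: the list's median log2 difference from the untreated mean was 1.11, 1.14 and -0.78 in GA3 replicates 1 to 3.

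Sulfur assimilation changed in part. Of 11 tested sulfur genes 4 rose and 1 fell (median 1.43), with 2 rises without untreated replicate 2 or 3 or GA3 replicate 2. APR1, which reduces activated sulfate, went from 42.7, 61.8 and 52.7 CPM to 187, 325 and 182 CPM (2.14 ± 0.37, adjusted p = 0.00396), and SULTR2;1, a sulfate transporter gene, fell from 302, 232 and 228 CPM to 149, 153 and 121 CPM (-0.85 ± 0.18, 0.0106). LSU2, a low-sulfur marker, rose by 2.97 ± 0.62 (0.00982), or 2.32 without GA3 replicate 2 and 3.59 without untreated replicate 1.

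Evening genes of the clock rose, and the morning gene LHY fell. The element AAATATCT, the evening element bound by LHY and its relatives, is shown in the 250 bases before the start of GRP7, a clock-run RNA-binding protein gene on chr2:9266558-9266807 of the minus strand, and of FKF1, a blue-light receptor of the flowering clock on chr1:25508389-25508638 of the plus strand, with the element in capitals in either orientation.
GRP7: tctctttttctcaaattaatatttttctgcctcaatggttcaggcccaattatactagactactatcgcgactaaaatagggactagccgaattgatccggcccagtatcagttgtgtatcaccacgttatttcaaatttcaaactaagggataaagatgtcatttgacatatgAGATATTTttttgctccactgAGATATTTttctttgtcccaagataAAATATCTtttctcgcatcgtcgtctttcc
FKF1: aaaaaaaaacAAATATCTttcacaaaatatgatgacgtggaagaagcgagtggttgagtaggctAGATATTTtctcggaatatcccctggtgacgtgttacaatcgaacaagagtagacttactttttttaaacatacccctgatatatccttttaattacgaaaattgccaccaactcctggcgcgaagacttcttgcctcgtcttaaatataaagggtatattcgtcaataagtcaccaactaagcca

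Of 14 tested evening genes 7 were called higher and none lower, with a median of 1.003, the same with FKF1 at its bound. GI, a hub of the evening clock and of flowering, had 6.59, 6.08 and 5.04 CPM in untreated leaves and 97.6, 92.4 and 65.8 CPM at 3 h (3.85 ± 0.42, adjusted p = 0.000314). GRP7 had 28.99, 35.2 and 44.4 CPM and then 158, 163 and 145 CPM (2.1005 ± 0.29, 0.00113), and its relative CCR1, also called GRP8, 58.2, 68.97 and 82.5 CPM and then 215, 179 and 122 CPM (1.297 ± 0.24, 0.00501). In none of these did the groups overlap, and no call depended on a single library. FKF1 had no read in untreated leaves and 1.28, 3.03 and 5.18 CPM at 3 h, at least 68.6-fold more against the floor of 3 reads (adjusted p = 0.0114). PRR5, a clock repressor, rose from 0.841, 0.533 and 2.39 CPM to 8.16, 12.1 and 13.8 CPM (3.19 ± 0.65, 0.00861, and 4.04 without untreated replicate 3). The core evening gene TOC1, chosen after its values were seen, had 36.5, 17.1 and 19.1 CPM and then 24.04, 26.3 and 32.98 CPM (0.197 ± 0.27, 0.668).

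Morning genes went both ways, with 2 rises and 4 falls among 12 and a median of -0.41, and 1 rise without untreated replicates 2 or 3 or GA3 replicates 1 or 2. LHY, a morning repressor of evening genes, had 135, 129 and 114 CPM in untreated leaves and 40.8, 32.98 and 26.0 CPM at 3 h, and fell by 1.92 on the log2 scale (SE 0.24, adjusted p = 0.000781). CCA1, its partner and the list member with the largest p, had -0.0081 ± 0.23 (0.987). AT3G54500, listed as LNK2, fell from 401, 542 and 557 CPM to 294, 233 and 165 CPM (-1.12 ± 0.21, 0.0055) while AT5G64170, listed as LNK1, rose from 59.9, 56.4 and 44.97 CPM to 134, 113 and 123 CPM (1.1995 ± 0.24, 0.00747). AAATATCT stood in 8 of 14 promoter windows of the evening list (57.1%), in 11.5% of all risen genes, in 3.1% of all fallen genes and in 5.91% of all genes tested.

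In the flowering list, 2 genes rose and 3 fell among 17 tested. Beside FT, SPL4, an age-pathway factor, fell from 8.94, 10.9 and 5.73 CPM to 0.529, 1.17 and 1.03 CPM (-3.23 ± 0.48, adjusted p = 0.00167), and CDF2, a repressor of flowering in the photoperiod pathway, from 37.2, 43.6 and 50.97 CPM to 11.03, 8.98 and 16.6 CPM (-1.85 ± 0.36, 0.00674). Both calls held without any single library. SPL3 fell by less (-1.097 ± 0.24, 0.0115, and 0.0503 without untreated replicate 3), and AGL20, better known as SOC1, rose by 0.81 ± 0.23 (0.0381), a call lost without each library but GA3 replicate 1 (up to 0.128).

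Of 14 tested genes of starch breakdown 6 rose and none fell, with a median of 0.85, and 4 rose without untreated replicate 1 or 3 or GA3 replicate 2. PHS2, a cytosolic glucan phosphorylase gene, had 22.6, 40.6 and 32.5 CPM in untreated leaves and 430.4, 364 and 229 CPM at 3 h (3.42 ± 0.27, adjusted p = 4.48e-05). SEX1, whose product phosphorylates starch at the start of its breakdown, had 86.4, 115 and 89.5 CPM and then 439.9, 369 and 369 CPM (2.02 ± 0.17, 6.03e-05). DPE2, which uses the maltose set free, rose from 54.5, 62.001 and 68.5 CPM to 171, 171 and 138 CPM (1.37 ± 0.16, 0.000384), and ISA3, a debranching enzyme gene, from 8.19, 12.96 and 9.07 CPM to 33.9, 37.3 and 41.6 CPM (1.898 ± 0.23, 0.000543). The groups of these 4 genes did not overlap, and their calls held without any single library.

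**Figure D4:**
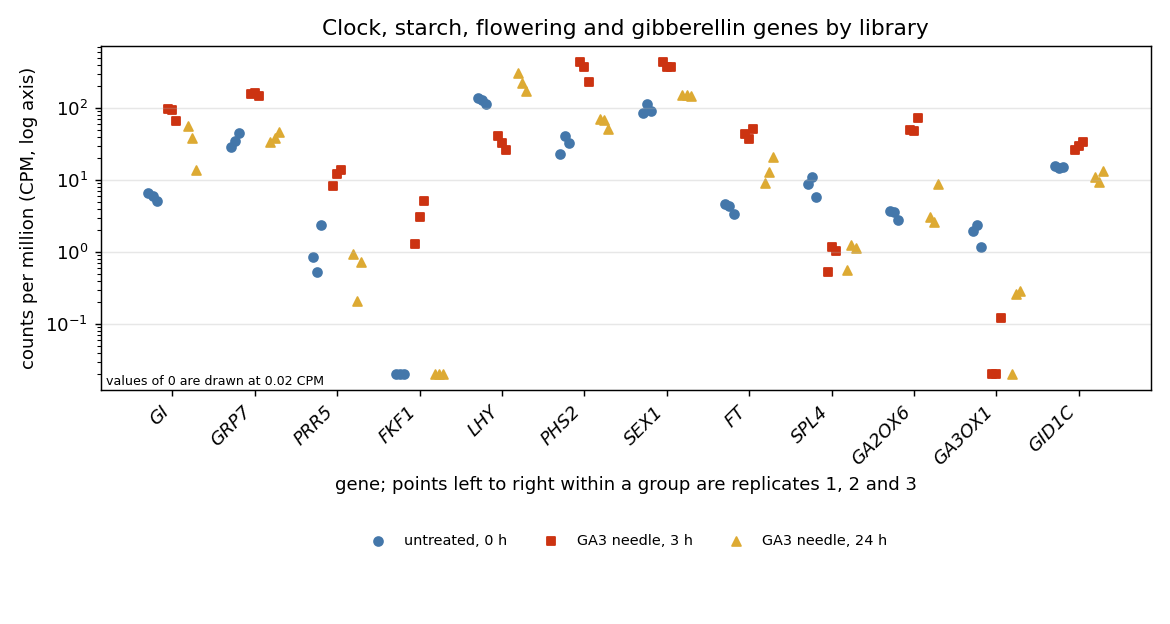
Level of 12 genes in each library (vertical axis, CPM on a log axis) in untreated leaves, 3 h after the GA3 needle and 24 h after it, 3 libraries each, with values of 0 drawn at 0.02 CPM. LHY, SPL4 and GA3OX1 lie below their untreated libraries at 3 h and the other 9 genes lie above, and at 24 h LHY was above its untreated range at a mean of 233 CPM.

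Sugar starvation genes differed within the 3 h group. Of 12 tested, DIN2 alone was called, and it had 0.0441, 0 and 90.8 CPM at 3 h against 0, 0.0444 and 0 CPM, so its log2 fold change of 10.46 ± 3.05 (adjusted p = 0.04) was 0.42 (0.94) without GA3 replicate 3. It lost the call without any untreated library too (up to 0.133, with 12.33 without untreated replicate 2). DIN10 had 1795, 713 and 1216 CPM in untreated leaves and 25.01, 19.9 and 520.1 CPM at 3 h, and TPS9, of the trehalose phosphate synthase family, 63.02, 76.2 and 72.4 CPM and 6.57, 7.66 and 61.4 CPM. In both, GA3 replicates 1 and 2 were far below the untreated libraries, and replicate 3 was within or near their range (adjusted p = 0.316 and 0.293). XTH24, a wall enzyme gene, had 547, 488 and 625 CPM and 12.6, 47.2 and 409 CPM, and SAG29, a sugar transporter gene also called SWEET15, had 0.841, 0.178 and 0.053 CPM and 0.221, 0.0488 and 46.2 CPM. Replicate 3 was again the high one at 3 h.

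**Figure D5:**
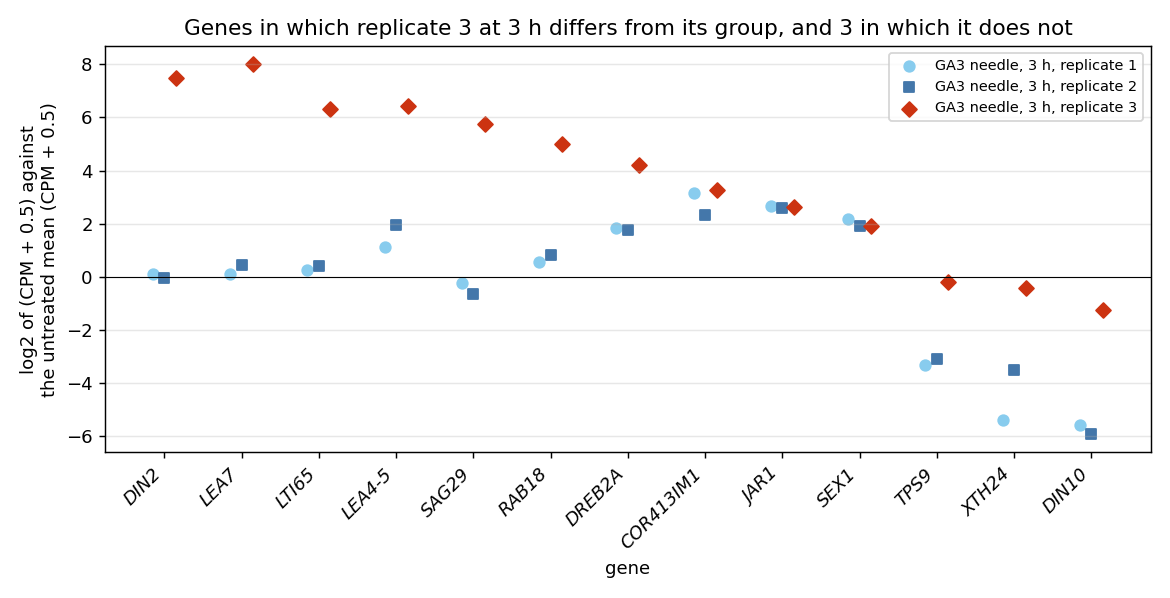
Log2 of CPM plus 0.5 in each 3 h library against the untreated mean plus 0.5 (vertical axis) for 13 genes (horizontal axis), chosen after their values were seen. GA3 replicate 3 lies above replicates 1 and 2 in the first 7 genes and the last 3, and with them in COR413IM1, JAR1 and SEX1, where JAR1 had 236, 223 and 231 CPM.

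Of 12 tested genes of brassinosteroids, hormones that promote leaf growth, 4 fell and none rose (median -0.698), and 2 fell without untreated replicate 3. BRI1, the hormone's receptor, had 216, 199 and 184 CPM and then 77.6, 46.3 and 54.5 CPM (-1.75 ± 0.22, adjusted p = 0.000803), and DWF1, of its synthesis, 182, 189 and 181 CPM and then 94.3, 92.9 and 70.6 CPM (-1.1002 ± 0.23, 0.00901). In the auxin-repressor family Aux/IAA, 4 of 18 fell and 1 rose. IAA13 fell from 25.8, 26.6 and 29.4 CPM to 12.2, 8.93 and 8.63 CPM (-1.46 ± 0.16, 0.000372), while IAA18 rose from 28.3, 27.96 and 28.2 CPM to 57.7, 92.5 and 89.3 CPM (1.503 ± 0.31, 0.00905). Without untreated replicate 2 or 3 the Aux/IAA falls numbered 2.

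Called cell wall genes went both ways. The share called was 22.7% of xyloglucan endotransglucosylase genes and 19.2% of arabinogalactan protein genes, against 14.2% of all genes tested. It was 7.14% of alpha-expansin genes and 0% of beta-expansin and expansin-like genes. Among 22 tested xyloglucan endotransglucosylase genes, which cut and rejoin wall polymers, the median was -1.16, with 2 called higher and 3 lower. XTH7 fell from 154, 203 and 114 CPM to 46.5, 55.97 and 62.3 CPM (-1.52 ± 0.21, adjusted p = 0.00113). The falls numbered 1 without GA3 replicate 1 or 2 and 5 without GA3 replicate 3, and the rises 1 without untreated replicate 1 or GA3 replicate 2 and 0 without untreated replicate 2 or GA3 replicate 1. Of 26 arabinogalactan protein genes, 4 fell and 1 rose, and 2 fell without GA3 replicate 2 or 3. AGP16 fell from 209, 198 and 255 CPM to 14.03, 18.3 and 22.1 CPM (-3.603 ± 0.49, 0.00104), and BXL2, a wall xylosidase gene among the 12 largest falls, from 104, 69.5 and 123 CPM to 8.47, 7.12 and 10.5 CPM (-3.51 ± 0.61, 0.00391). Of 14 alpha-expansin genes, whose products loosen walls, 1 rose and none fell, with 0 rises without untreated replicate 2 or 3 or GA3 replicate 1 or 2 and 2 without GA3 replicate 3. None of 6 beta-expansin and expansin-like genes was called by edgeR, with 0 at an unadjusted p under 0.05 and 0 called by DESeq2. Of 15 PIF and shade genes 1 fell, with 0 falls without untreated replicate 3 or GA3 replicate 2, 2 without GA3 replicate 1, and 2 rises without GA3 replicate 3. None of 16 tested cell cycle genes was called by edgeR with every library or without any 1 of them, at a median of -0.087, with 0 at an unadjusted p under 0.05 and 0 called by DESeq2.

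Few photosynthesis genes were called, all of them lower. Of 35 light-harvesting and photosystem genes 3 fell and none rose, and the median was -0.54. Without untreated replicate 2 or GA3 replicate 2 or 3 the falls numbered 1, and without untreated replicate 3 there was none. LHCB4.2 went from 2005, 2595 and 2817 CPM to 1356, 1088 and 739 CPM (-1.22 ± 0.28, adjusted p = 0.0147), a call lost without untreated replicate 3 or GA3 replicate 2 (up to 0.055). GUN5, a subunit gene of the magnesium chelatase of chlorophyll synthesis, went from 2953, 3534 and 2975 CPM to 1845, 1779 and 1031 CPM (-1.02 ± 0.25, 0.0204), a call lost without untreated replicate 2 or 3 (up to 0.0697). Chlorophyll synthesis held 3 falls among 11 genes, 0 without untreated replicate 2 or 3 and 1 without GA3 replicate 2 or 3. GA3 replicate 3 was the lowest library of both genes. The summed level of the 10 mesophyll markers was 61382 to 76012 CPM in untreated leaves and 34919 to 57022 CPM at 3 h, and its part in these falls was not tested.

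Epidermis and vein markers also moved in part. Of 9 epidermis markers 2 fell and none rose, with 4 falls and 1 rise without untreated replicate 1 and 1 fall without any other library but GA3 replicate 3. ATML1, a factor of epidermal identity, went from 49.7, 62.4 and 72.97 CPM to 25.5, 23.1 and 23.5 CPM (-1.36 ± 0.18, adjusted p = 0.000954). The summed epidermis markers were 1264 to 2248 CPM and then 1236 to 2006 CPM. Of 10 vascular markers 2 fell, and 0 or 1 did when any library was left out. Of 6 tested trichome markers TTG1 alone fell (-0.97 ± 0.15, 0.00179), and none of 7 tested guard cell markers was called by edgeR, with 2 at an unadjusted p under 0.05 and 0 called by DESeq2. Among seed markers, which include genes that abscisic acid also raises in leaves, GEA6 had no read in untreated leaves and 0.662, 1.56 and 2.34 CPM at 3 h, at least 32.9-fold more (adjusted p = 0.0246, lost without untreated replicate 2 or 3 or GA3 replicate 2, up to 0.0671), while LEC1 and the storage gene CRU3 were at 0 in both groups.

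Water channels and carriers rose in part. The aquaporin list held 8 genes, and its counts describe that list and not the whole family. Of its 6 tested genes 3 rose and 1 fell, and these numbers were the same when any library was left out. PIP2;5 had 4.91, 4.44 and 4.72 CPM in untreated leaves and 38.1, 45.9 and 53.4 CPM at 3 h (3.29 ± 0.25, adjusted p = 4.48e-05), TIP2;2 292, 152 and 158 CPM and then 791, 976 and 971 CPM (2.18 ± 0.27, 0.000764), and PIP1;5 fell from 234, 254 and 257 CPM to 79.7, 76.9 and 122 CPM (-1.42 ± 0.25, 0.00439). Of 38 amino acid transporter genes 9 rose and 3 fell. AAP3 went from 0.664, 0.666 and 0.318 CPM to 24.5, 42.9 and 40.5 CPM (6.001 ± 0.59, 0.000179), the smallest adjusted p of that family. MSS1, the hexose carrier gene STP13, rose from 37.4, 30.4 and 81.2 CPM to 159, 291 and 506 CPM (2.68 ± 0.51, 0.00595). The amino acid transporter rises numbered 5 without untreated replicate 3 or GA3 replicate 2.

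The largest changes were ranked among called genes with a symbol, a mean of 5 CPM or more in 1 group and libraries that did not overlap. Within these limits the 12 largest rises were PROPEP3, BGLU27, CYP94B1, CYP94B3, RAP2.6, DIP2, TPS03, PRN, UGT76E12, ACS2, WRKY30 and ST2A. RAP2.6, an ethylene-response-type factor gene, went from 0.752, 0.311 and 2.17 CPM to 166, 234 and 337 CPM (7.86 ± 1.498, adjusted p = 0.00628, and 8.84 without untreated replicate 3). ACS2, which makes the precursor of ethylene, went from 0.354, 0.0444 and 0.265 CPM to 8.12, 13.8 and 34.3 CPM (6.38 ± 1.004, 0.00226, and 5.596 without GA3 replicate 3), and it was the sole call among 13 ethylene genes. PRN, a pirin gene, went from 0.221, 0.0444 and 0.849 CPM to 61.3, 35.8 and 28.9 CPM (6.86 ± 0.93, 0.00104, and 8.24 without untreated replicate 3), and DIP2 from 0.221, 0.0444 and 0.053 CPM to 14.3, 23.7 and 19.6 CPM (7.39 ± 1.296, 0.00409, and 8.44 without untreated replicate 1). BGLU27, a beta-glucosidase gene, had 1 read in untreated leaves and 578 at 3 h, a ratio of 548 with a 95% counting interval of 97.9 to 21680, and most of the reads lay in GA3 replicate 2. The calls of BGLU27, CYP94B3, TPS03 and UGT76E12 were each lost when at least 4 of the 6 libraries were left out singly, and their adjusted p reached 0.0751, 0.0879, 0.117 and 0.0971. In the fit the log2 fold change of BGLU27 was 8.74, 10.61 without untreated replicate 2 and 6.86 without GA3 replicate 2. That of TPS03, an ocimene synthase gene, was 7.16, between 6.53 and 11.52 without untreated replicate 1, 2 or 3, and that of UGT76E12 was 6.81, 7.64 without untreated replicate 3 and 5.40 without GA3 replicate 3.

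The same limits leave out GA3OX1 for its low level (log2 fold change -5.22). Under them the 12 largest falls were PYL6, AGP16, ERD5, BXL2, LURP1, XTH15, ICME-LIKE2, UGT85A4, PUP7, SPL4, ABCB21 and MC2. PUP7, a purine permease family gene, went from 17.6, 51.6 and 74.8 CPM to 5.38, 6.099 and 3.78 CPM (-3.24 ± 0.67, adjusted p = 0.00917). Of these, PYL6, AGP16, BXL2, PUP7 and SPL4 kept their calls without any single library, and the other 7 lost theirs without at least 1. LURP1 and MC2, a defence-linked gene and a metacaspase gene, rested on untreated replicate 1, at 912, 87.5 and 160.3 CPM and 104, 5.503 and 12.8 CPM in untreated leaves, and their log2 fold changes went from -3.42 to -1.81 (0.0763) and from -3.195 to -1.06 (0.0715) without it. LURP1 was -4.304 and ICME-LIKE2 -4.55 without GA3 replicate 3, the latter from -3.35 with every library. ERD5, XTH15, ICME-LIKE2, UGT85A4 and ABCB21 had adjusted p-values of up to 0.143, 0.0776, 0.0673, 0.0567 and 0.0589.

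By 24 h after the GA3 needle, 1141 genes were higher and 1149 lower than at 3 h, 11.4% of 20077 genes tested (5.68% higher and 5.72% lower). Scaling by total counts alone gave 756 higher and 1829 lower, with the median of all genes at -0.19, so that 29.2% in place of 49.8% of the calls were higher. This comparison uses the same 3 h libraries as the one above, so an error in those libraries enters both, and the levels are given side by side without a count of reversals. The 24 h lies at the same clock time as 0 h, which 3 h does not. LTI78 stood at 31.5, 2124 and 74.9 CPM in the means of untreated, 3 h and 24 h leaves, with a log2 difference of 24 h against 3 h of -4.83 ± 0.46 (adjusted p = 0.000372). GI stood at 5.904, 85.3 and 35.6 CPM (-1.26 ± 0.38, 0.0504), and SEX1 at 96.9, 393 and 149 CPM (-1.397 ± 0.16, 0.000695). FKF1 was at 0 again in the 3 libraries at 24 h.

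For further genes the 24 h means are given beside earlier ones, and the difference of 24 h from untreated leaves was not tested. FT was at a mean of 14.2 CPM at 24 h, between its untreated mean of 4.13 and its 3 h mean of 43.7 CPM (-1.62 ± 0.402, adjusted p = 0.0261 against 3 h). SPL4 was at 0.9897 CPM against 8.53 CPM in untreated leaves (0.12 ± 0.48, 0.901 against 3 h), GA3OX1 at 0.183 CPM against 1.84 CPM (0.319 against 3 h) and PYL6 at 0.951 CPM against 18.5 CPM (0.638 against 3 h). GA2OX6 was down to 4.81 CPM from 56.8 CPM (-3.56 ± 0.404, 0.000601), and GID1C to 11.3 CPM from 29.9 CPM (-1.41 ± 0.21, 0.00221). APR1 stood at 385 CPM and was not called against 3 h (0.204). Without GA3 replicate 2 at 3 h or replicate 2 at 24 h this comparison held 900 and 749 calls.

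An empty-needle group was sampled at 24 h, and its levels are given beside those of the GA3 needle for the same genes, with no test of the difference here. FT had 9.16, 12.9 and 20.5 CPM in GA3 replicates 1 to 3 at 24 h and 15.8, 30.4 and 56.3 CPM in the empty-needle ones, groups that overlapped. SPL4 had 0.558, 1.26 and 1.15 CPM with GA3 and 9.73, 7.47 and 5.04 CPM with the empty needle, and GA3OX1 had 0, 0.262 and 0.288 CPM and 3.12, 1.13 and 2.25 CPM. In SPL4 and GA3OX1 every GA3 library lay below every empty-needle one. PYL6 had 0.279, 1.47 and 1.104 CPM with GA3 and 1.56, 4.68 and 1.98 CPM with the empty needle, which did not overlap but lay close. The levels of GA2OX6 were 3.07, 2.62 and 8.73 CPM and 3.17, 3.01 and 2.75 CPM, those of GID1C 11.02, 9.24 and 13.5 CPM and 13.3, 14.2 and 13.2 CPM, and those of APR1 374, 521 and 259 CPM and 368, 227 and 142 CPM. GA2OX6, GID1C and APR1 overlapped between these groups at 24 h.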

How the data were processed

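Total RNA of rosette leaves was sequenced, and the authors deposited raw read counts per gene for each library. STAR 2.7.7a and the TAIR10 genome are named in the submitters' processing notes; the annotation and the count settings are not given in the sources used here. For every gene the deposited files hold a count on either strand and on each strand. The 4th column was used, and the other strand held 4.88% to 5.51% of the reads in genes of the 6 libraries, so overlapping and antisense genes were kept apart by strand. The opening lines of reads in no gene were left out of totals and tests, which left 88.8% to 95.4% of the reads.

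Groups came from the sample labels. The 14 libraries were fitted together with edgeR 4.0.16 in R 4.3.3, without covariates, so that they share an estimate of spread: filterByExpr kept 20077 of 34218 genes, libraries were scaled by TMM, and the quasi-likelihood test gave p-values adjusted by the Benjamini-Hochberg method over all genes tested, with a threshold of 0.05. Counting intervals are exact 95% binomial intervals and, like the floor of 3 reads, cover counting error alone. RefSeq annotation of TAIR10.1 gave symbols for 10804 genes, and genes without one keep their locus name. Promoter windows came from the same assembly.

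The gene lists and their members were chosen with earlier results of these data known. Genes were named by rule: FT, the 12 largest rises and falls (among genes with a symbol, a mean of 5 CPM or more in 1 group and libraries that did not overlap), every gibberellin metabolism, receptor and DELLA gene, and from other lists up to 5 members with the smallest p and, where a list was split, the one with the largest. Alternatives were other scalings (DESeq2's size factors, TMM without organelle genes, total counts), DESeq2 1.42.0, limma-voom (limma 3.58.1), other filters, the counts that ignore strand, the 2 groups alone, a replicate block, and leaving out libraries.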

Additional observations from a re-analysis of the deposited data

How the results depend on the processing

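Rises outnumbered falls at 3 h under each of the 17 settings tried, while the number of calls moved with the test and with single libraries. DESeq2 called 4336 genes, 1931 of them lower, and the fit of the 2 groups alone called 752 lower. Leaving out 1 library gave 1475 to 3025 calls, 910 to 1721 higher and 496 to 1304 lower. For 24 h against 3 h, DESeq2 called 3761 genes, 2006 higher and 1755 lower, the 2 groups alone gave 1059, 500 and 559, and total counts gave 756 higher and 1829 lower. Leaving out 1 library gave 749 to 2128 calls there, 374 to 1124 higher and 375 to 1004 lower. The cause of these moves was not tested, except that fits with fewer libraries hold less information on spread.

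The replicate numbers did not pair the libraries: deviations of same-numbered libraries correlated at -0.024, 0.039 and 0.0058, and not every library correlated best with its own number. A fit with the replicate number as a block called 1722 higher and 1164 lower at 3 h (2886 in all) and 1082 higher and 1103 lower for 24 h against 3 h (2185 in all). At 3 h this block ended the calls of GASA6 (log2 fold change -2.78), RAB18, LEA7, LEA4-5, P5CS1, AGL20, DIN2 and MC2, and DREB1A was called.

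Leaving out untreated replicate 1 and GA3 replicate 3 together, chosen after the data were seen, turned DIN2 to -0.057 (-0.057 to 12.33 over the sets of libraries left out), the CBF, DREB and ZAT median to -0.039 (-0.039 to 0.86 over the sets of libraries left out), the salicylic acid median to 0.65 and the arabinogalactan median to 0.086. Without any 1 library the salicylic acid median ran from -0.84 to 0.80 and the arabinogalactan median from -0.64 to 0.26, both highest without untreated replicate 1. The photoperiod flowering median was 0.086 with counts that ignore strand, and that of PIF and shade genes ran from -0.13 to 0.17, the highest without untreated replicate 3. The median of genes with ERF symbols turned to 0.12 with limma-voom, 0.24 without untreated replicate 3 and 0.15 without GA3 replicate 3, in a range from -0.26 to 0.24. For the 154 tested genes named here, 2604 values under the alternatives split into 2397 with the same call or lack of one, 188 that lost the call, 18 that gained it and 1 of a called gene that turned. The 2397 include genes without a call that changed sign, such as GA3OX2, from -0.91 to 0.26 without untreated replicate 2. Among the list medians, 860 moved by less than the spread of the 3 h libraries, 93 moved further and 10 turned. With 3 libraries a group and no mock at 3 h, small changes may go undetected, and needle, hormone and clock time cannot be told apart.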
